A study of Mus musculus with 6 samples.

Results

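The genes described here are 9 genes of the B cell lineage, taken by symbol from the deposited table of 24062 genes: Cd79a, Cd79b, Vpreb1, Vpreb3, Igll1, Ebf1, Pax5, Rag1 and Ms4a1. All 9 were in the table. RNA was sequenced from the isolated auditory nerve, which carries the axons of the cochlear neurons and the glia around them, in young adult animals. The groups were 3 Vcan knockout mice and 3 wildtype mice, both of strain C57BL/6 per the labels (the submitters' design text gives C57BL/6J for the wildtype), with both cochleae of a mouse pooled into 1 library. Vcan encodes versican, a chondroitin sulfate proteoglycan of the extracellular matrix, and the labels do not name the allele, the promoter of any Cre or whether the deletion is limited to some cells. In bulk tissue, fewer cells of a type and less RNA per cell cannot be told apart.

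B cells form in the bone marrow, where progenitors switch on the transcription factors Ebf1 and Pax5 and rearrange their immunoglobulin genes with the Rag1 and Rag2 recombinase. A first receptor, the pre-B cell receptor, pairs the heavy chain with a surrogate light chain made of Vpreb1 and Igll1 (lambda 5), and signals through Cd79a and Cd79b. The same 2 signalling chains serve the mature B cell receptor, and Ms4a1 encodes CD20, a surface protein of later B cells. The cochlea lies within the temporal bone, which holds marrow, so a dissected nerve can carry marrow or blood cells along with it. Ebf1 is not restricted to B cells: it is also known from neurons, from mesenchymal cells and from fat cell precursors.

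The windows upstream of Cd79a, Vpreb1 and Igll1 are shown because Ebf1, by far the most abundant of the 9 transcripts in the nerve, is a known activator of these B cell genes, all of which were scarce there. Each is the 250 bases before the gene's start in RefSeq (GRCm38.p6), read 5′ to 3′ on the gene's own strand, with capitals on the letters that match CCCNNGGG or CCCNNGAG on either strand, 2 forms of the core that Ebf1 is known to bind.
Cd79a (chr7:24897247-24897496, plus strand): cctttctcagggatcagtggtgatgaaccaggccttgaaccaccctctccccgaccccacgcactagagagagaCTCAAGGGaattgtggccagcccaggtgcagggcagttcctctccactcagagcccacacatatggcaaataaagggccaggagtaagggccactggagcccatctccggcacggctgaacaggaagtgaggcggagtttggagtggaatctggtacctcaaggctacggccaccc
Vpreb1 (chr16:16869256-16869505, minus strand): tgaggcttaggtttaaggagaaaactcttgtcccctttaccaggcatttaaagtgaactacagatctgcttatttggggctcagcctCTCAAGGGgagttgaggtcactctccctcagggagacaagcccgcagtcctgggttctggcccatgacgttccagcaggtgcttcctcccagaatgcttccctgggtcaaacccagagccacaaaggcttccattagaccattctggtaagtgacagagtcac
Igll1 (chr16:16863986-16864235, minus strand): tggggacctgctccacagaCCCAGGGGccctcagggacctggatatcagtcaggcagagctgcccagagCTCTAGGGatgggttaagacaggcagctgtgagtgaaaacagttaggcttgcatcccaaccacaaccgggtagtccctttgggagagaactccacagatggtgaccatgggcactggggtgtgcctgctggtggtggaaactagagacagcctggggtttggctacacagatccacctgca
The Cd79a and Vpreb1 windows held the same 8 letters, CTCAAGGG, starting 176 and 163 bases before the start of each gene. The Igll1 window held CTCTAGGG at 181 bases and CCCAGGGG at 231 bases before the start. Of all 32851 windows of 250 bases in the same table, 20.7% held CCCNNGAG, 11.8% held CCCNNGGG and 1.01% held CTCAAGGG, on either strand. The table held windows for 7 of the 9 members, and those of Ebf1, Pax5, Rag1 and Vpreb3 held neither core form, which says only that these letters are not in those windows. The Vpreb3 window (75948050 to 75948299) and another Ebf1 window (44619978 to 44620227) lie inside the gene spans given below, not before their starts. The motifs were chosen for what is known of Ebf1, and a match is a description of the letters.

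Library totals were 74530860 to 92513887 counts, and every pair of libraries differed by more than counting error (chi-square per degree of freedom at least 41.4). Markers of the nerve were high in every library, with a summed level of 10 neuronal and Schwann cell genes of 15589, 20040 and 19765 CPM (counts scaled to the library size, adjusted by TMM) in the knockout nerves and 21262, 24669 and 12805 CPM in the wildtype nerves. Wildtype replicate 3 was the lowest of the 6. It also correlated with the other libraries at only 0.9475 to 0.9566 (log2 CPM over all genes tested), below every other pair. Knockout replicate 1 correlated with wildtype replicate 1 at 0.9768, above its 0.9611 and 0.9623 with knockout replicates 2 and 3. Vcan was counted at 5.44, 2.70 and 2.88 CPM in knockout nerves and at 8.36, 9.61 and 7.32 CPM in wildtype nerves, a log2 fold change of −1.20 (SE 0.32) that did not pass in edgeR's quasi-likelihood test (Benjamini-Hochberg adjusted p = 0.558) and passed in DESeq2 (adjusted p = 0.0342).

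No B cell lineage gene was called different between Vcan knockout and wildtype nerves, and most of them were scarce. Vpreb1 was the only tested member whose groups did not overlap, as was so for 10.3% of all genes tested. Of the 9, 7 had enough counts to be tested (edgeR's filter on low counts), and 0 of these passed an adjusted p under 0.05 in edgeR, where 0.138% of the 16722 genes tested passed (0.0658% higher and 0.0718% lower in knockout nerves). At an unadjusted p under 0.05 there were 0 members as well, against 5.20% of all genes, and 0 members were called by DESeq2 (1.36% of all genes) or in the authors' deposited table (1.34% of all genes). Among the 7 tested members 5 had a log2 fold change above 0, against 48.9% of all genes, and their median was 0.13 against −0.01 over all genes. Vpreb1 passed the filter on low counts only with the help of the knockout libraries, so these counts over the tested members carry no weight of their own.

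**Figure D1:**
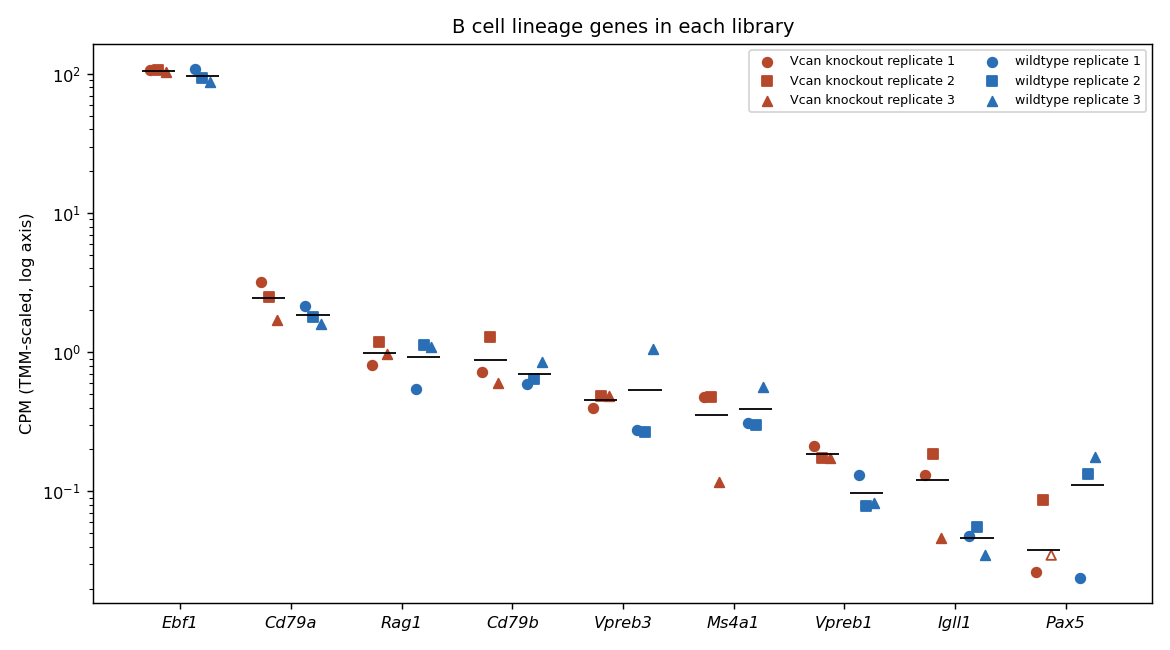
CPM (log axis) of the 9 B cell lineage genes in each of the 3 Vcan knockout libraries (red, left in each pair) and the 3 wildtype libraries (blue), with bars at the group means; the open triangle is the 0 count of Pax5 in knockout replicate 3, drawn at its upper limit of 0.0348 CPM. Ebf1 lies near 100 CPM and every other gene below 4 CPM. Vpreb1 is the only tested gene of the 9 whose groups do not overlap, as is so for 10.3% of all genes tested.

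Cd79a and Cd79b encode the paired signalling chains of the pre-B and B cell receptors, which carry tyrosine motifs that recruit the kinase Syk. Cd79a (gene identifier 12518, chromosome 7, 24897497 to 24901858, GRCm38) was at 3.18, 2.51 and 1.71 CPM in knockout nerves, against 2.15, 1.78 and 1.59 CPM in wildtype nerves. The knockout libraries spread more widely and the lowest of them lay within the wildtype range. The log2 fold change was 0.42 (SE 0.32, 95% interval −0.33 to 1.18, edgeR adjusted p = 0.9996). Cd79b (gene identifier 15985, chromosome 11, 106311341 to 106314562) was at 0.725, 1.29 and 0.603 CPM in knockout nerves and at 0.588, 0.645 and 0.854 CPM in wildtype nerves. Knockout replicate 2 stood above the rest, and the other 5 libraries were intermixed. Its log2 fold change was 0.33 (SE 0.41, 95% interval −0.66 to 1.31, edgeR adjusted p = 0.9996), and it turned to −0.07 without knockout replicate 2. Although both chains are made as a pair, the ratio of their levels per exon length, Cd79a over Cd79b, ranged from 1.92 to 4.30 in knockout nerves and from 1.83 to 3.59 in wildtype nerves.

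The surrogate light chain genes lie side by side on chromosome 16 and were barely detected. Vpreb1 (gene identifier 22362, 16868401 to 16869255) had 16, 16 and 15 counts in knockout nerves and 11, 7 and 7 counts in wildtype nerves, or 0.211, 0.173 and 0.174 CPM against 0.132, 0.0779 and 0.0819 CPM. The groups did not overlap, as was so for 10.3% of all genes tested (5.42% with the knockout above, 4.93% with it below), and the counting intervals of the single libraries did (95% exact Poisson, 9.15 to 26.0 for 16 counts and 5.49 to 19.7 for 11). The log2 fold change was 0.93 (SE 0.48, 95% interval −0.23 to 2.08), with an unadjusted p of 0.0986 and an adjusted p of 0.9996 (edgeR). Vpreb1 shares 31.2% of its 50-base stretches with Vpreb2, a near copy of it that was counted at 1 read over the 3 knockout and 5 reads over the 3 wildtype libraries. It also overlaps 108 bases of Top3b, a far more abundant gene on the other strand, so its counts are uncertain. Igll1 (gene identifier 16136, 16860671 to 16863985), its partner in the surrogate light chain, had 10, 17 and 4 counts in knockout nerves and 4, 5 and 3 counts in wildtype nerves. Knockout replicates 1 and 2 stood above the wildtype nerves and knockout replicate 3 stood among them. It had too few counts for edgeR's filter, and in DESeq2 its adjusted p was 0.9998 at a log2 fold change of 1.38.

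Vpreb3, which associates with immunoglobulin chains inside precursor B cells, turned on a single animal. Vpreb3 (gene identifier 22364, chromosome 10, 75943024 to 75949657) was at 0.395, 0.487 and 0.487 CPM in knockout nerves and at 0.276, 0.267 and 1.05 CPM in wildtype nerves. Wildtype replicate 3 was the highest of the 6 libraries and the other wildtype nerves were the lowest, with the knockout nerves between them. The log2 fold change was −0.22 (SE 0.62, 95% interval −1.70 to 1.26, edgeR adjusted p = 0.9996), and 0.74 without wildtype replicate 3 (adjusted p = 0.883).

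Rag1 cuts the DNA at immunoglobulin and T cell receptor segments during rearrangement. Rag1 (gene identifier 19373, chromosome 2, 101638252 to 101649532) was at 0.804, 1.18 and 0.975 CPM in knockout nerves, against 0.540, 1.13 and 1.09 CPM in wildtype nerves. The knockout values lay within the wildtype range save for replicate 2, just above it, and the log2 fold change was 0.10 (SE 0.40, 95% interval −0.85 to 1.05, edgeR adjusted p = 0.9996). Its sign turned without knockout replicate 2 (−0.05) or without wildtype replicate 1 (−0.17). Its partner Rag2 was at 0.0527, 0.206 and 0.0696 CPM in knockout nerves and at 0.0240, 0.134 and 0.597 CPM in wildtype nerves. The ratio of Rag1 to Rag2 per exon length was 7.90, 2.97 and 7.26 in knockout nerves and 11.7, 4.40 and 0.945 in wildtype nerves. Rag2 had 4, 19 and 6 counts in knockout nerves and 2, 12 and 51 counts in wildtype nerves, so counting error widens these ratios. The lowest ratio was that of wildtype replicate 3, the library with the most Rag2 counts. Rag1 overlaps 80 bases of the abundant gene B230118H07Rik on the same strand, and whether its counts hold reads of that gene was not tested.

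The transcription factors Ebf1 and Pax5 stood at the 2 ends of the levels. Ebf1 (gene identifier 13591, chromosome 11, 44618100 to 45008096) was at 106, 106 and 104 CPM in knockout nerves and at 108, 94.3 and 87.5 CPM in wildtype nerves. Wildtype replicate 1 was the highest library and the groups overlapped. Its log2 fold change of 0.13 (SE 0.13, 95% interval −0.17 to 0.43, edgeR adjusted p = 0.9996) had the narrowest interval of the tested members. Pax5 (gene identifier 18507, chromosome 4, 44524748 to 44710694), which holds committed cells to the B lineage, had 2, 8 and 0 counts in knockout nerves and 2, 12 and 15 counts in wildtype nerves. The groups overlapped. The 0 in knockout replicate 3 allows up to 3 counts, or 0.0348 CPM, as a 1-sided 95% limit for counting error only. The 2-sided exact Poisson interval, as used for Vpreb1, reaches 3.69 counts. Pax5 did not pass edgeR's filter, and in DESeq2 its adjusted p was 0.9998 at a log2 fold change of −1.56. Ms4a1 (gene identifier 12482, chromosome 19, 11249679 to 11266149), the CD20 gene, was at 0.474, 0.477 and 0.116 CPM in knockout nerves and at 0.312, 0.300 and 0.561 CPM in wildtype nerves. Knockout replicate 3 was the lowest library and wildtype replicate 3 the highest, and the log2 fold change of −0.14 (SE 0.62, 95% interval −1.62 to 1.35, edgeR adjusted p = 0.9996) turned to 0.27 without knockout replicate 3 and to 0.21 without wildtype replicate 3.

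**Figure D2:**
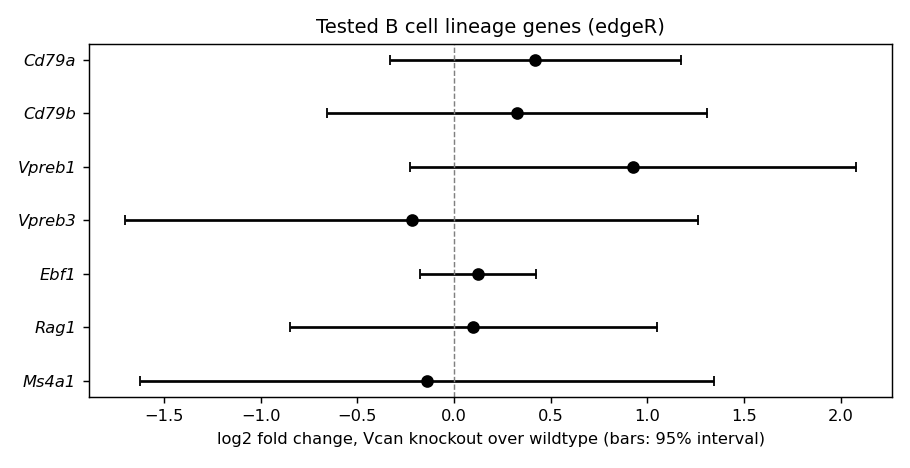
Log2 fold change of Vcan knockout over wildtype nerves for the 7 tested B cell lineage genes (points) with 95% intervals (bars) from edgeR's quasi-likelihood fit. Every interval includes 0, and the narrowest belongs to Ebf1, at −0.17 to 0.43.

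The intervals of the tested members left room for a log2 difference of up to 1.18 higher in knockout nerves for Cd79a and up to 2.08 for Vpreb1, and of up to 1.70 lower for Vpreb3, where the interval reached −1.70. For Ebf1 the bounds were −0.17 and 0.43.

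Set on a scale per length of exon (CPM per kilobase), Ebf1 stood apart from the other members. It averaged 10.8 ± 0.119 CPM per kilobase in knockout nerves and 9.90 ± 1.06 in wildtype nerves (SD, n = 3 each). Cd79a came next, at 1.69 ± 0.505 in knockout and 1.26 ± 0.194 in wildtype nerves. Vpreb3 (0.532 ± 0.0618 and 0.619 ± 0.525) and Cd79b (0.610 ± 0.256 and 0.486 ± 0.0978) did not differ from each other beyond their spread. The library values of Rag1 (0.149 ± 0.0285 and 0.139 ± 0.0501) and Vpreb1 (0.155 ± 0.0179 and 0.0811 ± 0.0252) overlapped in both groups. All of these are means in knockout and then wildtype nerves, in CPM per kilobase (SD, n = 3 each). Ms4a1 (0.0575 ± 0.0335) and Igll1 (0.0558 ± 0.0321) overlapped in knockout nerves, while in wildtype nerves all 3 values of Ms4a1 (0.0632 ± 0.0238) lay above those of Igll1 (0.0214 ± 0.0048, SD, n = 3 each). Pax5 was lowest by mean, at 0.00426 ± 0.00502 CPM per kilobase in knockout nerves and 0.0125 ± 0.00883 in wildtype nerves (SD, n = 3 each). Over the 19133 detected genes with an exon length, Ebf1 stood above 74.2% on this scale, Cd79a above 39.5% and Pax5 above 6.65%.

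**Figure D3:**
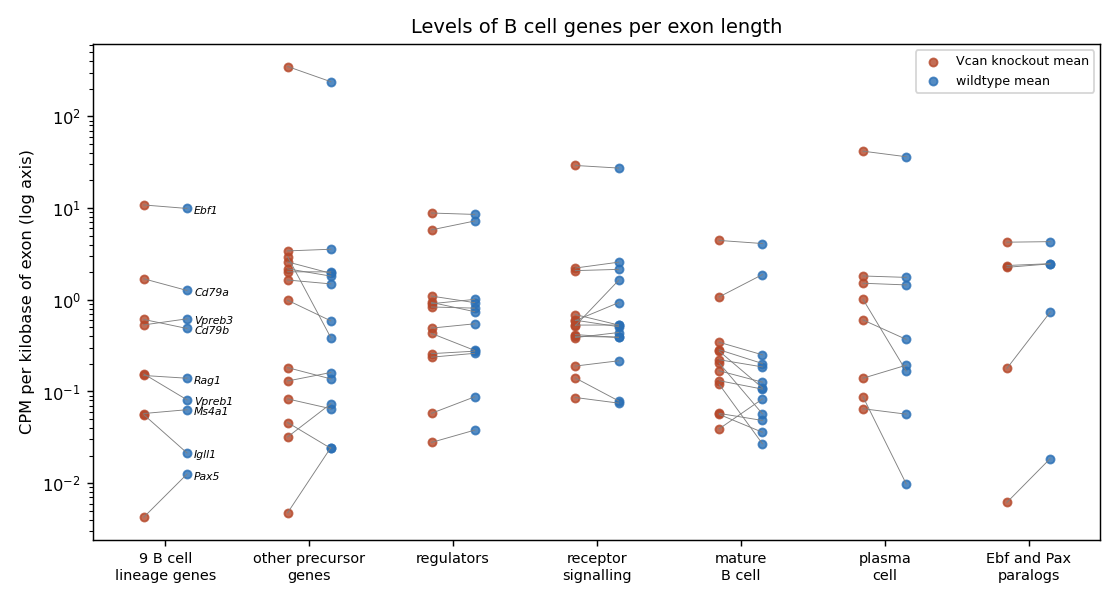
Mean level (CPM per kilobase of exon, log axis) of B cell genes in Vcan knockout (red, left) and wildtype nerves (blue, right), a pair of joined points per gene, by gene list. Ebf1 lies near 10 and the other 8 members below 2, from Cd79a down to Pax5.

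Ebf1 and Cd79a were both lowest in wildtype replicate 3, and their ratio varied between libraries. The level of Ebf1 per exon length was 4.99, 6.30 and 9.10 times that of Cd79a in knockout nerves and 7.50, 7.91 and 8.22 times in wildtype nerves. The ratios of Cd79a to Cd79b and of Rag1 to Rag2, given above, varied too. The highest library exceeded the lowest by 1.23-fold for Ebf1, against 2.00-fold for Cd79a, 3.94-fold for Vpreb3 and 4.84-fold for Ms4a1. Counting error widens such ratios more for scarce genes, with 10 to 48 counts for Ms4a1 against 7482 to 9789 for Ebf1. Among its paralogs, Ebf2 averaged 2.26 ± 0.309 CPM per kilobase in knockout and 2.46 ± 0.422 in wildtype nerves, Ebf3 averaged 2.36 ± 0.0444 in knockout and 2.47 ± 0.444 in wildtype nerves, and Ebf4, the highest of them, averaged 4.24 ± 0.0596 in knockout and 4.30 ± 1.05 in wildtype nerves (SD, n = 3 each). Of 7 pericyte genes, 0 passed in edgeR, against 0.138% of all genes, and 1 had an unadjusted p under 0.05, against 5.20%. Of the 7 pericyte genes, 1 lay above 0, against 48.9% of all genes, and 6 below, with a median log2 fold change of −0.12. Among them the receptor Pdgfrb was at 96.5 ± 16.0 CPM in knockout and 96.8 ± 11.9 CPM in wildtype nerves (SD, n = 3 each). Rgs5 was at 56.1, 37.0 and 32.1 CPM in knockout nerves and at 75.7, 62.8 and 116 CPM in wildtype nerves, without overlap and without passing (edgeR adjusted p = 0.631). Which cells the Ebf1 transcripts came from was not measured.

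Without Ebf1, the other 8 members summed to 5.94, 6.39 and 4.11 CPM in knockout nerves and to 4.07, 4.40 and 5.44 CPM in wildtype nerves. The groups overlapped, with means of 5.48 ± 1.21 CPM in knockout and 4.63 ± 0.716 CPM in wildtype nerves (SD, n = 3 each). The 9 members did not share a high library: 3 were highest in knockout replicate 2, 3 in wildtype replicate 3, 2 in knockout replicate 1 and 1 in wildtype replicate 1.

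Of 61 genes in 5 further lists (precursor genes, regulators, receptor signalling, mature B cell and plasma cell genes), 58 were tested and 0 passed in either direction in edgeR, where 0.138% of all genes did. An unadjusted p under 0.05 was found for 5, or 8.62%, against 5.20% of all genes, and DESeq2 called 1, against 1.36% of all genes. Of the 58, 38 had a log2 fold change above 0 and 20 below 0, with a median of 0.13, against 48.9% of all genes above 0 and a median of −0.01. The groups did not overlap for 7 of them, or 12.1%, against 10.3% of all genes tested. The immunoglobulin constant genes, which would weigh plasma cells against precursors, were not analysed here, since none of the 12 symbols listed was matched in the table.

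Among precursor genes, Ly6d, a surface protein of lymphoid progenitors that some epithelial cells also make, was at 2.69, 3.52 and 0.371 CPM in knockout nerves and at 0.0360, 0.300 and 0.526 CPM in wildtype nerves. Knockout replicates 1 and 2 were far above the other 4 libraries, and the log2 fold change of 2.92 (SE 1.07) did not pass (edgeR adjusted p = 0.843). Il7r, the receptor for the growth factor of B cell precursors, was at 0.778, 0.845 and 0.197 CPM in knockout nerves and at 0.288, 0.267 and 1.70 CPM in wildtype nerves, again highest in wildtype replicate 3. Arpp21 and Hdac9 lay higher in all 3 knockout nerves than in any wildtype nerve without passing, at log2 fold changes of 0.75 (SE 0.28, edgeR adjusted p = 0.850) and 0.41 (SE 0.20, edgeR adjusted p = 0.9996). Both are also neuronal genes, and without wildtype replicate 3 they were at 0.49 and 0.22 in the same order. Cd24a, a surface protein shared by B cell precursors and neurons, averaged 901 ± 203 CPM in knockout and 615 ± 154 CPM in wildtype nerves (SD, n = 3 each).

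Of the regulators, 12 were tested and 0 passed in edgeR, where 0.138% of all genes did. Of the 12, 5 lay above 0, against 48.9% of all genes, and 7 below. Tcf3, the E2A factor that acts ahead of Ebf1 in the B lineage, averaged 35.6 ± 1.62 CPM in knockout and 34.4 ± 1.50 CPM in wildtype nerves, and Foxo1, a forkhead factor that activates the Rag genes, averaged 50.1 ± 2.19 CPM in knockout and 62.6 ± 28.7 CPM in wildtype nerves (SD, n = 3 each). The wildtype spread of Foxo1 came from replicate 3, at 95.5 CPM.

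Of the receptor signalling genes, Pik3ap1, an adaptor for PI3 kinase that macrophages use too, was the only gene of the 5 lists called by DESeq2 (adjusted p = 0.0179). It was at 4.82, 2.27 and 1.62 CPM in knockout nerves and at 11.4, 6.70 and 9.02 CPM in wildtype nerves, with no overlap, at a log2 fold change of −1.64 (SE 0.45) that did not pass in edgeR (adjusted p = 0.571). Dapp1, another adaptor of this pathway, also lay below in all 3 knockout nerves, at a log2 fold change of −0.65 (SE 0.28, edgeR adjusted p = 0.992). Prkcb, a kinase abundant in neurons, averaged 223 ± 13.4 CPM in knockout and 209 ± 65.7 CPM in wildtype nerves (SD, n = 3 each).

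Of 13 mature B cell genes 11 lay above 0, and of 7 plasma cell genes 6 did, against 48.9% of all genes. The summed levels of both lists overlapped between the groups. Mature B cell genes summed to 28.6, 20.3 and 17.0 CPM in knockout nerves and to 26.6, 24.0 and 9.01 CPM in wildtype nerves. Plasma cell genes summed to 136, 161 and 152 CPM in knockout nerves and to 113, 151 and 125 CPM in wildtype nerves. In either list 0 passed in edgeR, where 0.138% of all genes did, and DESeq2 called 0. DESeq2 gave no adjusted p for the plasma cell gene Jchain, so it could not be called there. Bank1, a scaffold of B cell receptor signalling, was at 1.61, 0.747 and 0.325 CPM in knockout nerves and at 0.300, 0.211 and 0.0936 CPM in wildtype nerves, without overlap and without passing (log2 fold change 2.14, SE 0.72, edgeR adjusted p = 0.766), and its log2 fold change was 1.41 without knockout replicate 1. Cd40, a receptor for T cell help, also lay above in all 3 knockout nerves at a log2 fold change of 0.45 (SE 0.32, edgeR adjusted p = 0.9996). Jchain (listed as Igj), which joins secreted antibody subunits, was at 6.40, 0.617 and 0.580 CPM in knockout nerves and at 0.396, 0.478 and 0.386 CPM in wildtype nerves. Its log2 fold change of 2.59 (SE 1.00, edgeR adjusted p = 0.879) was 0.51 without knockout replicate 1. Tnfrsf13c, the BAFF receptor, was at 5.56, 0.563 and 0.476 CPM in knockout nerves and at 7.44, 3.10 and 1.01 CPM in wildtype nerves, high in replicate 1 of both groups. Xbp1, a secretory regulator that most cells express, averaged 135 ± 16.5 CPM in knockout and 118 ± 19.3 CPM in wildtype nerves (SD, n = 3 each).

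Of 9 genes for signals that marrow stroma gives to B cell precursors, 0 passed in edgeR or in DESeq2, with 2 at an unadjusted p under 0.05 (edgeR), where 5.20% of all genes were. Of the 9, 2 lay above 0, against 48.9% of all genes, and 7 below, with a median log2 fold change of −0.31. Il7, the cytokine that B cell precursors depend on, was at 0.0527, 0.206 and 0.0348 CPM in knockout nerves and at 0.132, 0.267 and 1.99 CPM in wildtype nerves. The adhesion molecule Vcam1 was at 79.9, 74.8 and 71.9 CPM in knockout nerves and at 90.1, 101 and 262 CPM in wildtype nerves, without overlap and without passing (edgeR adjusted p = 0.937). Il7 and Vcam1, the 2 genes under 0.05, were both highest in wildtype replicate 3. The log2 fold change of Il7 was −2.99 with all libraries and −1.01 without that one, and that of Vcam1 was −1.001 with all and −0.35 without it. Cxcl12, the chemokine that holds B cell precursors in the marrow, was lowest in that animal, at 130, 122 and 113 CPM in knockout nerves and at 139, 152 and 57.2 CPM in wildtype nerves.

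Lists of other marrow and blood cells are given beside the B cell genes, and their part in the values above was not tested. Of the 12 T cell genes in the table, the summed level was 4.65 to 7.22 CPM in knockout and 3.91 to 6.53 CPM in wildtype nerves. The 14 neutrophil genes summed to 135, 186 and 84.6 CPM in knockout nerves and to 23.7, 30.3 and 67.7 CPM in wildtype nerves, without overlap. Ltf, which glands make too, gave 121 of the 135 CPM in knockout replicate 1, where S100a9 was at 1.15 CPM, the lowest of the 6 libraries. Without Ltf, a choice made after seeing the data, the other 13 summed to 14.4, 122 and 75.3 CPM in knockout nerves and to 21.3, 27.6 and 55.2 CPM in wildtype nerves, and the groups overlapped. The 7 platelet genes summed to 30.1 to 53.3 CPM in knockout and 17.1 to 23.2 CPM in wildtype nerves, without overlap. All 7 had a log2 fold change above 0, against 48.9% of all genes, and DESeq2 called 1 of them, against 1.36% of all genes. Ppbp, a platelet chemokine, was called by DESeq2 (adjusted p = 1.19e-05) and not by edgeR (log2 fold change 3.41, SE 0.75, adjusted p = 0.328). The erythroid genes in the table summed to 10.6 to 19.8 CPM in knockout and 9.62 to 42.3 CPM in wildtype nerves, highest in wildtype replicate 3, with 5 of the 6 globin symbols listed at 0 in all libraries. The 11 macrophage genes summed to 161 to 202 CPM in knockout and 235 to 241 CPM in wildtype nerves, without overlap. None of the members of these other lists passed in edgeR, where 0.138% of all genes did.

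**Figure D4:**
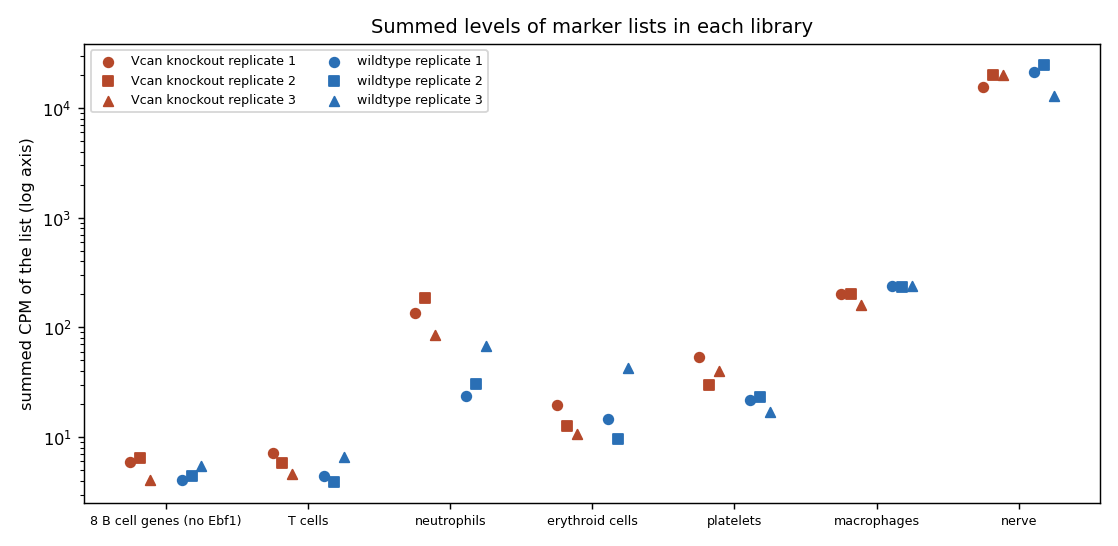
Summed CPM (log axis) of the 8 B cell lineage genes other than Ebf1 and of marker lists for other cells in each of the 3 Vcan knockout libraries (red, left in each pair) and the 3 wildtype libraries (blue). The B cell sum lies between 4.07 and 6.39 CPM in all 6 libraries and its groups overlap, while the neutrophil and platelet sums of the knockout libraries lie above those of all wildtype libraries, for neutrophils only with Ltf included. The macrophage sums of the knockout libraries lie below those of all wildtype libraries.

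The genes whose differences between libraries came closest to the median pattern of the 7 tested members were sought among genes with a mean of at least 1 CPM, by the root mean square difference of centred log2 CPM over the 6 libraries. The 10 nearest were Dhx32, C230035I16Rik, Ccdc17, Eif2d, Mchr1, Wdr1, Pls3, Trit1, Gpr97 and Slc2a9, at differences of 0.083 to 0.11 on the log2 scale. None of them belongs to the B cell lists. The median pattern itself was shallow, from −0.22 in wildtype replicate 2 to 0.32 in knockout replicate 2 on the log2 scale, so many genes of small variation lay near it.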

How the data were processed

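Total RNA of dissected auditory nerves was sequenced from 3 Vcan knockout and 3 wildtype mice with TruSeq RNA libraries, per the labels' protocols. Per the submitters' processing notes the authors used mm10, HTSeq and DESeq2. No source used here gives versions, strandedness or the handling of reads that match several genes. The deposited values used here are raw counts per gene made by the authors. Per the file headers the same table holds the authors' mean of normalised counts (a signal), log2 fold change, test statistic (a score), p-value and adjusted p-value, used only where their table is named. Of 24067 rows, 5 symbols stood on 2 rows with identical counts and were joined.

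Knockout was compared with wildtype in R 4.3.3 with edgeR 4.0.16 (filterByExpr, TMM, robust quasi-likelihood F tests, 2-sided, Benjamini-Hochberg over 16722 genes, threshold 0.05) and no covariate. The SE of a log2 fold change was its size over the square root of F, and 95% intervals used the fit's degrees of freedom. The fit was tested on simulated data. DESeq2 1.42.0 was an alternative. Log2 CPM used a prior count of 2. Exon lengths (the union of all exons of a gene) and shared 50-base stretches came from GENCODE vM21, positions and promoters from RefSeq GRCm38.p6, the build of mm10. All 9 gene identifiers matched. A CPM is scaled by TMM, and count intervals and floors (3 counts) cover counting error only.

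The members, the lists and the rule for other named genes (members of a list past the threshold, otherwise the 2 of highest mean, and the 10 nearest patterns; not all are described) were chosen with earlier results of these data known. Ly6d, Rag2, Il7r, Arpp21, Pik3ap1, Dapp1, Bank1, Cd40, Jchain, Il7, Rgs5 and Ppbp were picked after their values were seen.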

Additional observations from a re-analysis of the deposited data

How the results depend on the processing

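No member of the B cell lineage was called in edgeR or DESeq2 under any of the 13 alternatives run (2 other scalings, 2 other filters, DESeq2, a non-robust fit, the replicate block and 6 fits that left out a library), in each of which 0 members passed. The filter of at least 1 CPM in 3 libraries left only Cd79a, Ebf1 and Rag1 to test. The other members could not be called in that fit. The number of genes called over the whole table was 23, against 252 in DESeq2, 3 with the replicate number as a block and 3 to 14 when any one library was left out. Of 163 genes of the other lists tested by edgeR, 0 were called in it, against 0.138% of all genes. DESeq2 called 3 of the 163, against 1.36% of all genes: Pik3ap1, Ppbp and the osteoclast gene Oscar. The nearest 10 patterns shared 9 genes when the prior count was 0.5.

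The sign of small, uncalled log2 fold changes depended on single animals, and for 30 genes 358 of 377 alternative values kept sign and side of the threshold. When a library was left out, the range was −0.0719 to 0.52 for Cd79b, −0.54 to 0.74 for Vpreb3, −0.17 to 0.28 for Rag1 and −0.41 to 0.27 for Ms4a1. It was −2.02 to 0.47 for Rag2, −0.71 to 1.12 for Il7r, −0.53 to 0.11 for Foxo1, −0.14 to 0.30 for Prkcb, −2.89 to 0.0936 for Tnfrsf13c and −0.27 to 0.31 for Cxcl12. Cd79a (0.20 to 0.62), Vpreb1 (0.79 to 1.20) and Ebf1 (0.05 to 0.21) kept their sign, with adjusted p of at least 0.598 (edgeR). The cause of these turns was not tested. With the replicate block Vpreb3 was at 0.0809 and Il7r at 0.22. The replicate numbers were not taken as pairs, since the labels name no pairing. Same-numbered libraries deviated from their group means with correlations of 0.43, 0.22 and −0.15, and differently numbered ones with −0.49 to 0.37. The highest was that of replicate 1 in both groups, and whether these 2 libraries shared a step was not tested. The replicate numbers and the block follow the sample titles, while the table's column names number the knockout animals 1, 3 and 4. The low counts of the members under 1 CPM limit what their tests can show.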
